A study of Mus musculus with 10 samples.

Results

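The genes described here are 10 growth factor receptors and ligands measured in leukemic mouse spleens: the PDGF receptors Pdgfrb and Pdgfra, the PDGF ligands Pdgfa and Pdgfb, the insulin and IGF receptors Igf1r, Insr and Igf2r, and the receptors Kit, Flt3 and Met. All 10 were listed among the 16865 gene symbols of the deposited table. The set was chosen by symbol, and Pdgfrb was selected on its measured normalized counts, because its level lay far above that of stromal genes in these same libraries, so its level is given as a description without a test. Total RNA of whole spleen suspensions from C57BL/6 mice was sequenced in bulk with strand-specific libraries. The mice had been irradiated below the lethal dose and injected through a vein with T-ALL, an acute lymphoblastic leukemia of T cells, carrying a conditional Sirt1 allele. In the Sirt1 deleted group, 5 mice had received 3 mg of tamoxifen each, in corn oil. In the Control group, 5 mice had received corn oil alone. Both groups therefore carried leukemia with the same conditional allele, and tamoxifen and deletion cannot be told apart because no group received tamoxifen without deletion. Sirt1 encodes a NAD-dependent protein deacetylase. The labels give neither the Cre line, nor the age of the mice, nor which leukemia each recipient carried, and the host's own spleen cells were part of each sample. The p-values therefore measure only the spread between these samples.

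Receptor tyrosine kinases span the cell membrane, bind a growth factor outside the cell and phosphorylate tyrosines on themselves, to which adaptor proteins and lipid kinases then attach. Pdgfrb is the receptor for PDGF-B chains and is best known from pericytes, smooth muscle cells and fibroblasts, whereas Pdgfra binds PDGF-A chains and is known from fibroblasts and their precursors. Igf1r and Insr bind the insulin-like growth factors and insulin. Igf2r is no kinase: it carries enzymes tagged with mannose 6-phosphate to lysosomes and clears IGF2. Kit and Flt3 bind stem cell factor and FLT3 ligand on blood progenitors, and Met binds hepatocyte growth factor.

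Normalized counts summed to between 33.6 M and 34.8 M per library. The spacing of the lowest values put the depth at 31.7 ± 8.23 M reads in Sirt1 deleted libraries and 38.4 ± 6.38 M in Control libraries (SD, n = 5 each, two-sided exact permutation p = 0.183). Sirt1 itself had 922, 824, 1071, 1061 and 709.6 normalized counts in Sirt1 deleted libraries, against 1324, 1348, 1174, 1192 and 1126 in Control libraries. The groups did not overlap, and the Sirt1 deleted mean was 74.4% of the Control mean (exact permutation p = 0.00794). No split of 5 against 5 can give a lower p. T lineage markers stood high in every library: the 13 markers summed to 102037 to 123318 normalized counts per kilobase in Sirt1 deleted libraries and 94678 to 106442 in Control libraries, led by Cd3g and Lck. The erythroid markers of 1 library, Sirt1 deleted replicate 1, summed to 295201 per kilobase, against 595279 or more in the 9 others. Of 13567 genes tested, 32.0% differed between the groups (limma, Benjamini-Hochberg adjusted p at or below 0.05), 14.5% higher and 17.5% lower in Sirt1 deleted spleens. These were 4344 genes, and 2711 were called without Sirt1 deleted replicate 2, 2335 without Control replicate 1 and 2200 without Control replicate 2. Differences followed transcript length: across genes the Spearman correlation of the log2 difference with length was -0.58. For each library, the deviation of every gene from its mean over all libraries was regressed on log2 length, so the group means mirror each other. This relative length slope was -0.0805 ± 0.0729 in Sirt1 deleted and 0.0805 ± 0.0497 in Control libraries (SD, n = 5 each, exact permutation p = 0.00794). For this reason differences of the genes described here, and the counts of each pathway list, are also given after a correction for length and GC content, under which 14.4% of 13304 genes passed. The log2 difference of Sirt1 was -0.44 as deposited (limma adjusted p = 0.0125) and -0.26 after the correction (limma adjusted p = 0.0313).

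Pdgfrb (ENSMUSG00000024620.11, chromosome 18, 61045150 to 61085061 on the plus strand of GRCm38) was the most abundant of the 10 genes by a wide margin. Its 5 Sirt1 deleted libraries held 25002, 22775, 19631, 22151 and 23115 normalized counts, and its 5 Control libraries held 24269.6, 24296, 25573, 23971 and 22690.5. The lowest value was that of Sirt1 deleted replicate 3, and 2 Sirt1 deleted libraries lay below every Control library, while the other 3 lay within the Control range. Per kilobase of transcript, which allows levels of different genes to be compared, Pdgfrb averaged 4155 ± 358 in Sirt1 deleted and 4455 ± 189 in Control spleens (SD, n = 5 each). That put it at rank 500 of the 16504 genes with a known length, above 97.0% of them. The level varied little, with a coefficient of variation of 7.26% over the 10 libraries.

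**Figure D1:**
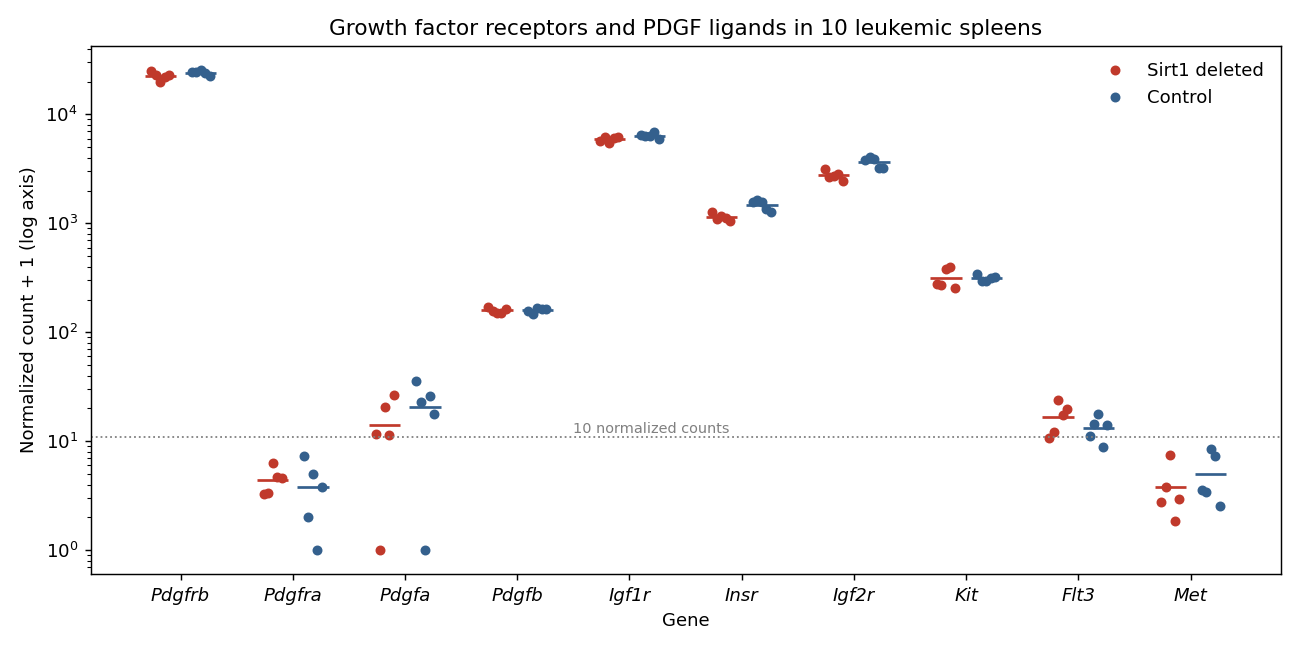
Normalized counts plus 1 (log axis) of each gene in each of the 10 libraries, with Sirt1 deleted libraries in red on the left and Control libraries in blue on the right of each gene. Short bars are group means, the dotted line marks 10 normalized counts, and Pdgfrb lies at 19631 or above in every library, while Pdgfra and Met lie below 10 in every library.

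The 10 genes covered a wide range of levels per kilobase. From the top the order was Pdgfrb, Igf1r, Igf2r, Insr, Kit, Pdgfb, Pdgfa, Flt3, Met and Pdgfra. Over the 10 libraries the ranges of Kit (48.7 to 75.1) and Pdgfb (49.8 to 57.9) overlapped, as did those of Pdgfa (0 to 16.9) and Flt3 (2.16 to 6.21), and those of Met (0.128 to 1.10) and Pdgfra (0 to 0.919). No other neighbours in this order overlapped. Within each library Pdgfrb stood 7.33 to 9.23 times as high per kilobase as Igf1r, the next of these genes. Among all 46 receptor tyrosine kinases listed in the table, the median level was 1.71 per kilobase, 31 lay under 10 and 11 above 100. Pdgfrb made up 55.2% of the summed level of this family. The next highest was Ptk7, a pseudokinase of planar cell polarity, at 696 per kilobase in Sirt1 deleted and 793 in Control spleens, and Pdgfrb stood 5.04 to 7.22 times above it within libraries.

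Genes that usually accompany Pdgfrb in stromal cells were far lower. Of 17 stromal fibroblast markers, 12 were listed, and they summed to 619 to 730 per kilobase in Sirt1 deleted and 714 to 888 in Control libraries. Most of that sum was Col1a2, a chain of type I collagen, at 551 in Sirt1 deleted and 667 in Control spleens. The partner chain Col1a1 stood at 17.6 in Sirt1 deleted and 14.7 in Control spleens, so that Col1a2 exceeded it 28.2 to 72.5 times within libraries. The second highest stromal marker, Col5a1, another collagen chain, stood at 41.0 in Sirt1 deleted and 39.5 in Control spleens. Of 9 mural markers, 8 were listed, and they summed to 158 to 167 in Sirt1 deleted and 154 to 165 in Control libraries, led by Tagln, an actin-binding protein of smooth muscle (69.4 in Sirt1 deleted and 61.8 in Control spleens), and Mcam, an adhesion molecule (57.8 in Sirt1 deleted and 51.3 in Control spleens). Pdgfrb exceeded Col1a2 6.07 to 8.51 times and Tagln 48.2 to 89.7 times in the same libraries. Of 9 endothelial markers, 8 were listed, with sums of 42.6 to 78.8 in Sirt1 deleted and 44.7 to 83.2 in Control libraries, led by Plvap and Stab2. The defining markers were thus not all absent: 1 stromal, 1 mural and 1 endothelial marker were listed at 0 in some library and none in all. Against Lck, the kinase that starts T cell receptor signalling, Pdgfrb stood at 0.240 to 0.294 times. In bulk RNA, which cells held the Pdgfrb transcripts was not measured, and for any gene here fewer cells of a type and less RNA per cell cannot be told apart.

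**Figure D2:**
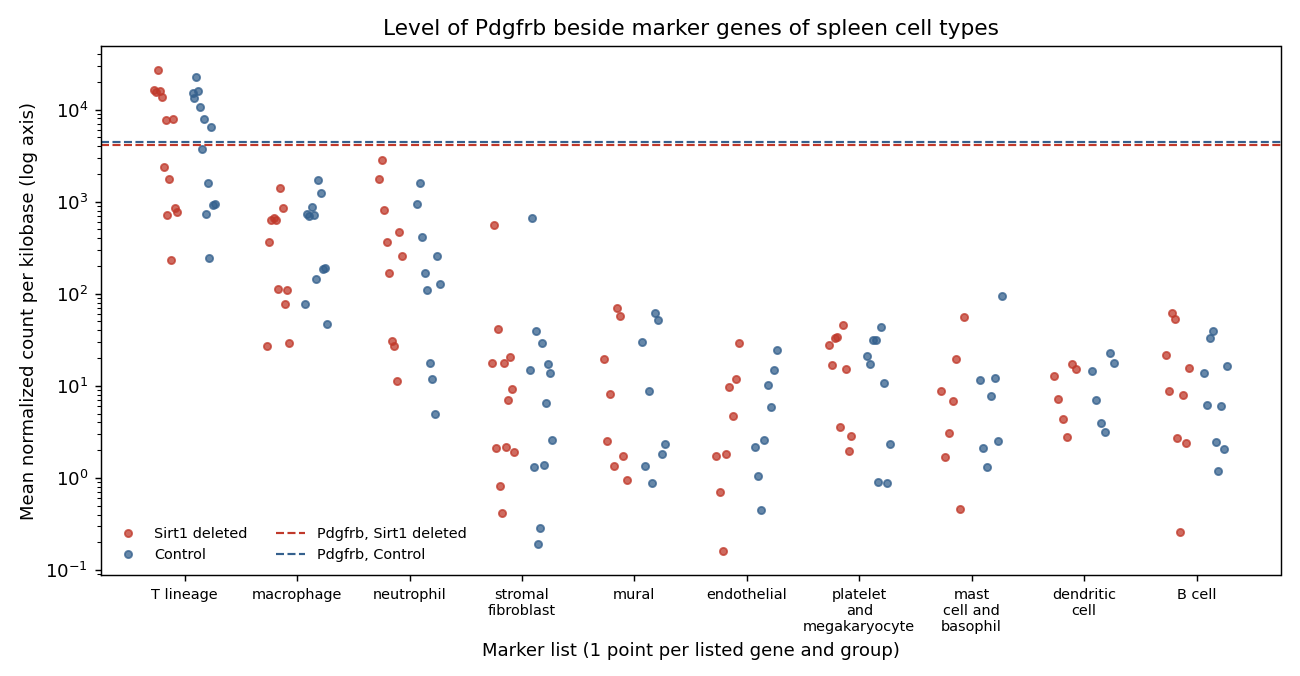
Mean normalized counts per kilobase (log axis) of each listed marker gene in 10 marker lists, Sirt1 deleted means in red on the left and Control means in blue on the right. The dashed lines mark Pdgfrb at 4155 in Sirt1 deleted and 4455 in Control spleens: no stromal, mural or endothelial marker reached them, and in the lists drawn only T lineage markers lay above. Erythroid markers are not drawn.

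The surroundings of Pdgfrb were looked up after its level was known. Of 33 annotated genes within 500 kb, 20 were listed, Pdgfrb included, and 6 of these 20 lay above 90% of all genes in level per kilobase. The closest listed gene downstream, Csf1r, which encodes the macrophage growth factor receptor, starts 55.4 kb away and stood at 111 per kilobase in Sirt1 deleted and 189.9 in Control spleens. The closest listed genes on the other side were close to 0: Cdx1, an intestinal homeobox gene, had 1.88 normalized counts in Sirt1 deleted and 0.848 in Control spleens, and Slc6a7, a proline transporter of the brain, had 2.82 in Sirt1 deleted and 2.14 in Control spleens. Farther out, Arsi, of the arylsulfatase family, at -133 kb, stood above 93.7% of all genes, with 2121 per kilobase in Sirt1 deleted and 2611 in Control spleens. Arsi had 7825, 6513, 5339, 6584 and 5291 normalized counts in Sirt1 deleted libraries, against 7648, 7999.9, 7968.5, 7298 and 7921 in Control libraries. Arsi was lower in Sirt1 deleted spleens by a log2 difference of -0.31 (limma adjusted p = 0.0241), and by -0.40 after the correction (adjusted p = 0.0139). As deposited, Ndst1 (-0.65), Slc26a2 (-1.10), Csf1r (-0.81) and Dctn4 (-0.29) were also called lower and Cd74 (0.50) higher. The other listed neighbours were not called or not tested, beside 32.0% of all tested genes called. After the correction Ndst1 (-0.42), Slc26a2 (-0.74) and Csf1r (-0.69) stayed called, while Dctn4 and Cd74 did not pass, beside 14.4% of all genes.

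**Figure D3:**
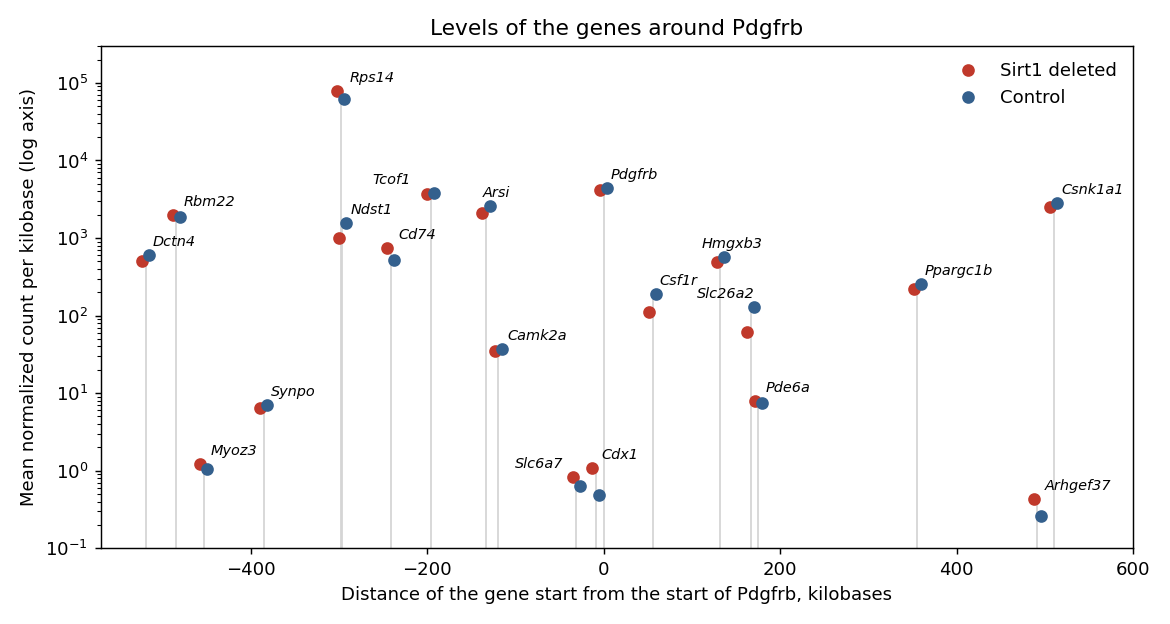
Mean normalized count per kilobase (log axis) of the 20 listed genes within 500 kb of Pdgfrb, against the distance of each gene start from that of Pdgfrb in kilobases, with Sirt1 deleted in red and Control in blue, drawn slightly apart. Cdx1 and Slc6a7 lie near 1 beside Pdgfrb, which lies at 4155 in Sirt1 deleted and 4455 in Control spleens, and Arsi lies at 2121 in Sirt1 deleted and 2611 in Control spleens.

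Deletion of Sirt1 came with no called difference in Pdgfrb. The means were 22535 ± 1940.45 normalized counts in Sirt1 deleted and 24160.1 ± 1027 in Control spleens (SD, n = 5 each). The log2 difference was -0.10 (SE 0.0638, 95% interval -0.24 to 0.03, limma adjusted p = 0.222, exact permutation p = 0.127). Tested genes within 1.25-fold of its length (n = 2449) had a median difference of -0.20, and 38.6% of them were called lower. After the correction the difference was 0.06 (95% interval -0.05 to 0.18, adjusted p = 0.438).

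The 5 tested genes that followed Pdgfrb most closely over the 10 libraries were Pik3cd, Plekhg3, Zswim8, Pcnx3 and Pde2a. Their Pearson r on log2 values was 0.966 for Pik3cd, which encodes a leukocyte catalytic subunit of PI3-kinase, 0.962 for Plekhg3, 0.960 for Zswim8, 0.945 for Pcnx3 and 0.934 for Pde2a, a cyclic nucleotide phosphodiesterase. Spearman's rho ran from 0.8545 (Pde2a) to 0.976 (Zswim8). With group means removed r ran from 0.928 to 0.967, and without the 2 libraries farthest from the median of Pdgfrb (Sirt1 deleted replicate 3 and Control replicate 3) from 0.834 to 0.922. These genes had the highest r among 13566, so no p is given, and all values of a library share its depth and length slope. Their transcripts measured 4218 to 7264 bases, near the 5423 of Pdgfrb.

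Pdgfra, the other PDGF receptor, was close to the limit of detection. It had 2.27, 2.36, 5.28, 3.70 and 3.63 normalized counts in Sirt1 deleted libraries, against 6.28, 1.03, 3.96, 0 and 2.83 in Control libraries. The groups overlapped, no library reached 10, and the gene was not tested across the table (exact permutation p = 0.429). One normalized count stood for 0.620 to 1.31 estimated reads, so a few reads separate these values.

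The ligand of Pdgfrb in this set, Pdgfb, was not called. It had 170.5, 157, 150.7, 150.3 and 161 normalized counts in Sirt1 deleted libraries, against 156, 147, 165, 164 and 161 in Control libraries. The ranges overlapped almost fully and the means were 158 ± 8.38 in Sirt1 deleted and 158 ± 7.55 in Control spleens (SD, n = 5 each, log2 difference -0.00463, SE 0.0874, limma adjusted p = 0.973), with a 95% interval of -0.19 to 0.18. After the correction the difference of Pdgfb was -0.12 (adjusted p = 0.320). Platelets are a known store of PDGF, and the 9 listed platelet and megakaryocyte markers summed to 166 to 194 per kilobase in Sirt1 deleted and 136 to 208 in Control libraries, led by Gp1ba and Gp9; none of the 6 tested passed. Pdgfa had 10.7, 0, 19.4, 10.5 and 25.5 normalized counts in Sirt1 deleted libraries, against 34.9, 21.8, 0, 25.2 and 16.8 in Control libraries. It was listed at 0 in 1 library of each group and spread so widely that its log2 difference of -0.48 (SE 1.01, adjusted p = 0.739) had a 95% interval of -2.65 to 1.70. Corrected, it was -0.56 (adjusted p = 0.736).

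Of the 8 genes that could be tested, Insr and Igf2r were called, both lower in Sirt1 deleted spleens, and none was called higher. That is 2 of 8, beside 17.5% of all tested genes called lower. Their median log2 difference was -0.10, beside 0.000967 over all tested genes. After the correction for length and GC, 0 of 8 were lower and 1, Igf1r, was higher, beside 6.07% lower and 8.29% higher over all genes, and the median was 0.03. Insr and Igf2r stayed called whichever single library was left out, and 0 of 8 were called with macrophage markers, B cell markers or the length slope as a covariate, or without the 3 libraries of steepest length slope. Over all genes these settings called 0, 1, 0 and 3. The length slope did not overlap between the groups (at most -0.0187 in Sirt1 deleted, at least 0.00318 in Control libraries). Macrophage marker sums nearly separated them (3232 to 6101 per kilobase in Sirt1 deleted, 6036 to 8152 in Control libraries). As covariates these take up much of the group difference, so 0 calls with them cannot decide whether these genes differ. With macrophage markers as a covariate the log2 differences were -0.42 for Insr and -0.46 for Igf2r, with B cell markers -0.40 and -0.41, with the length slope -0.09 and -0.08, and without the steepest libraries -0.27 and -0.28.

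Insr (ENSMUSG00000005534.10, chromosome 8, 3122061 to 3279617, minus strand) had 1268, 1089, 1161, 1125 and 1041 normalized counts in Sirt1 deleted libraries, against 1564, 1629, 1574, 1365 and 1272 in Control libraries. The groups did not overlap, as was so for 16.5% of tested genes, but the highest Sirt1 deleted and the lowest Control library nearly met. The Sirt1 deleted mean was 76.8% of the Control mean, a log2 difference of -0.38 (SE 0.0797, limma adjusted p = 0.00872, exact permutation p = 0.00794). The 691 tested genes of like length had a median difference of -0.355, and 62.8% of them were called lower. After the correction the difference of Insr was -0.01 (95% interval -0.12 to 0.10, adjusted p = 0.932).

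Igf2r (ENSMUSG00000023830.14, chromosome 17, 12682406 to 12769664, minus strand) had 3151, 2636, 2702, 2857 and 2448 normalized counts in Sirt1 deleted libraries, against 3815, 4092, 3928, 3208 and 3197 in Control libraries. These groups did not overlap either. The Sirt1 deleted mean was 75.6% of the Control mean, a log2 difference of -0.40 (SE 0.0857, limma adjusted p = 0.00899, exact permutation p = 0.00794). Genes of like length (n = 814) had a median of -0.34, with 62.5% called lower, and after the correction the difference of Igf2r was -0.07 (adjusted p = 0.303). Igf2r overlaps the antisense RNA Airn, known for its part in the imprinting of Igf2r. Airn had 221 ± 45.4 normalized counts in Sirt1 deleted and 179 ± 19.0 in Control spleens (SD, n = 5 each, log2 difference 0.29, adjusted p = 0.141). The use of strand in counting is not stated, so reads from any sequence that the pair shares may not have been told apart. Among the other genes of mannose 6-phosphate sorting, the small receptor M6pr had 6632 normalized counts in Sirt1 deleted and 6637 in Control spleens. Gnptab and Gnptg, subunits of the enzyme that makes the tag, had log2 differences of -0.37 (adjusted p = 0.0178) and 0.35 (adjusted p = 0.0160). After the correction these were -0.13 (adjusted p = 0.182), not called, and 0.33 (adjusted p = 0.0198).

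Igf1r (ENSMUSG00000005533.10, chromosome 7, 67952827 to 68233668, plus strand) had 5697, 6212, 5508, 6125 and 6243 normalized counts in Sirt1 deleted libraries, against 6427, 6340.1, 6324, 6879 and 5921 in Control libraries. The ranges overlapped, with 2 Sirt1 deleted libraries below every Control library. The log2 difference was -0.10 (SE 0.0554, 95% interval -0.22 to 0.02, limma adjusted p = 0.181, exact permutation p = 0.103). Its transcript is 11409 bases long, and the 338 tested genes of like length had a median of -0.37, with 61.5% called lower. The correction turned the direction, to 0.27 (SE 0.0844, adjusted p = 0.0495), just within the threshold. Igf1r exceeded Insr 4.33 ± 0.523 times per kilobase in Sirt1 deleted and 3.56 ± 0.399 times in Control libraries.

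**Figure D4:**
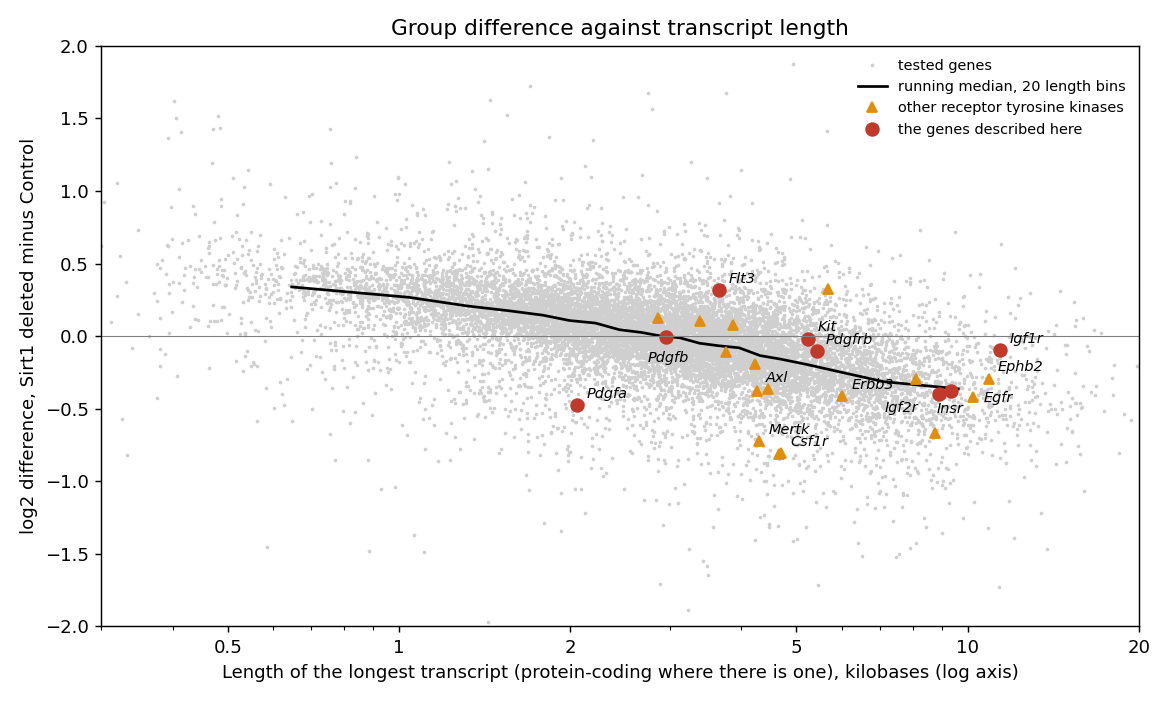
The log2 difference of Sirt1 deleted minus Control for each tested gene against the length of its longest transcript in kilobases (log axis). Grey points are tested genes, the black line is their median in 20 length bins, red circles are the genes described here and orange triangles other receptor tyrosine kinases. The line falls with length: Insr and Igf2r lie on it at -0.38 and -0.40, and Igf1r above it at -0.10. Genes beyond the axes are not drawn.

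The promoters of Igf2r, called lower as deposited, and of Igf1r, not called as deposited, are shown to compare the letters before 2 genes described here. After the correction Igf2r was not called (limma adjusted p = 0.303) and Igf1r was called higher (limma adjusted p = 0.0495). Any link between these letters and the calls was not tested. RefSeq windows (GRCm38.p6) were at hand for 7 of the 10 genes, without Pdgfrb, Pdgfb and Insr. Each line gives the 250 bases before the RefSeq start, which for both genes lies upstream of the GENCODE start given above, 5′ to 3′ on the gene's strand, with GC boxes (GGGCGG or CCGCCC) and E-boxes (CACGTG) in capitals.
Igf2r, chr17:12769707-12769956, minus strand: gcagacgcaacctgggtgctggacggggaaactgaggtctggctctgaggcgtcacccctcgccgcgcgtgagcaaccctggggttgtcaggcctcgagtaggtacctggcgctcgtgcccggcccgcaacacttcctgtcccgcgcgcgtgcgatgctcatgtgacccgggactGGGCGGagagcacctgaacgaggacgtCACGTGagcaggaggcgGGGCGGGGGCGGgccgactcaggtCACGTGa
Igf1r, chr7:67952007-67952256, plus strand: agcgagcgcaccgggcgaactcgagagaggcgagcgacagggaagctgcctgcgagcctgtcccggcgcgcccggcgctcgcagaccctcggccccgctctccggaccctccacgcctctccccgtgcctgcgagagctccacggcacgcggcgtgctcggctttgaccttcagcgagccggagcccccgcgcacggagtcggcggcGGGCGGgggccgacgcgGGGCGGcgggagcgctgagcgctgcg
The Igf2r window held 3 GC boxes and 2 E-boxes at 69.2% GC, and the Igf1r window held 2 GC boxes and 0 E-boxes at 77.6% GC. No match overlapped another, and neither window held TATAAA on either strand. Of 32851 RefSeq windows of this length, 32.7% held a GC box, 6.02% an E-box and 12.4% TATAAA.

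Kit had like means in both groups and was not called. It had 274, 269.9, 378, 393 and 255 normalized counts in Sirt1 deleted libraries, against 339.6, 296, 293, 312 and 324 in Control libraries. None of the 5 Sirt1 deleted libraries fell within the Control range: 3 lay below it and 2 above. The means were 314 ± 66.1 in Sirt1 deleted and 313 ± 19.4 in Control spleens (SD, n = 5 each), the log2 difference -0.02 (SE 0.126, 95% interval -0.29 to 0.25, limma adjusted p = 0.928). After the correction it was 0.21 (adjusted p = 0.217). Mast cells are rich in Kit, and the 2 libraries of high Kit differed in mast cell and basophil markers, whose 7 listed genes summed to 222 per kilobase in Sirt1 deleted replicate 3 and 57.7 in replicate 4, while Control libraries held 85.1 to 183. Mcpt4 and Hdc led that list and none of its 4 tested genes passed.

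Flt3 and Met were scarce. Flt3 had 9.82, 11.1, 22.7, 16.6 and 18.6 normalized counts in Sirt1 deleted libraries, against 10.2, 13.3, 16.9, 7.88 and 13.0 in Control libraries. The groups overlapped (log2 difference 0.32, SE 0.285, 95% interval -0.30 to 0.93, limma adjusted p = 0.406; corrected 0.38, adjusted p = 0.377). Dendritic cells and early progenitors are its usual carriers, and the 6 dendritic cell markers, led by Itgax and Batf3, summed to 43.8 to 75.5 per kilobase in Sirt1 deleted and 55.8 to 80.9 in Control libraries. Its ligand Flt3l was plentiful by comparison, with 333 per kilobase in Sirt1 deleted and 286.5 in Control spleens (log2 difference 0.21, adjusted p = 0.124). Met had 1.78, 2.78, 6.49, 0.874 and 1.95 normalized counts in Sirt1 deleted libraries, against 2.56, 2.43, 7.47, 6.31 and 1.53 in Control libraries. It reached 10 in no library and was not tested across the table (exact permutation p = 0.389).

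**Figure D5:**
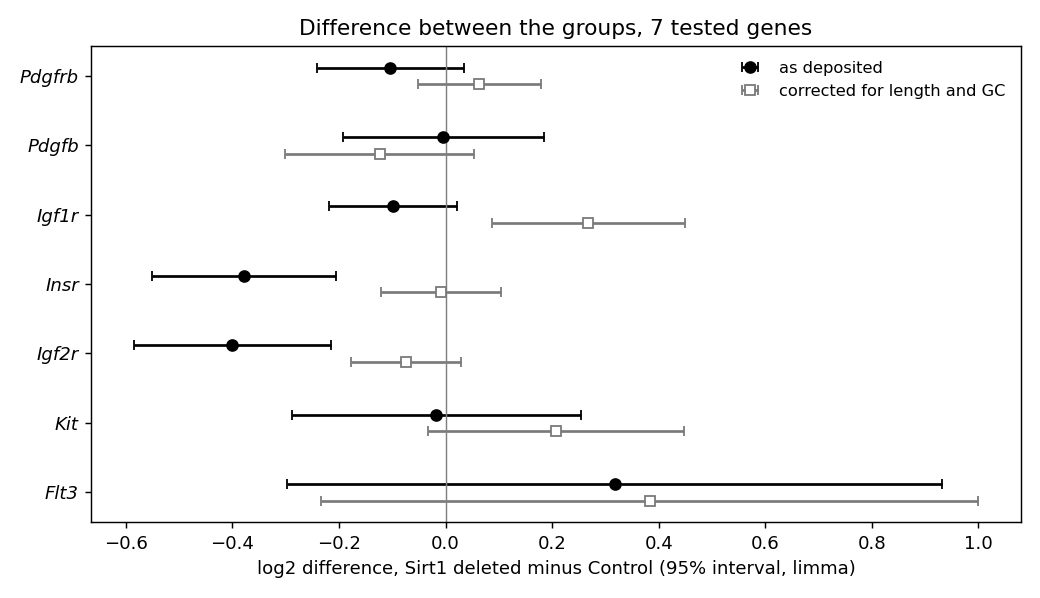
The log2 difference of Sirt1 deleted minus Control with its 95% limma interval for 7 tested genes, as deposited (filled circles) and after the length and GC correction (open squares). As deposited, only the intervals of Insr and Igf2r exclude 0, and after the correction only that of Igf1r does. Pdgfa, whose interval runs from -2.65 to 1.70, is not drawn.

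Among the other receptor tyrosine kinases, 39 of 51 entries were listed and 16 could be tested. None was called higher, 7 were called lower and 9 did not pass, with a median log2 difference of -0.33, beside 17.5% lower and 14.5% higher over all tested genes. Of the tested genes within 1.25-fold of the length of Kit (5241 bases), 36.4% were called lower, and of Flt3 (3657 bases), 16.7%. The median length of the 16, 4564 bases, lay between these lengths. Without Sirt1 deleted replicate 2, Control replicate 1 or Control replicate 2, 3 were called in each case. Erbb3, a receptor of neuregulins, had 534 ± 57.6 normalized counts in Sirt1 deleted and 709 ± 44.5 in Control spleens (log2 difference -0.41, limma adjusted p = 0.00855). Egfr, the EGF receptor, had 346.5 in Sirt1 deleted and 462 in Control spleens (-0.42, adjusted p = 0.0182), and Lmtk2, a membrane kinase of vesicle traffic, 1019 in Sirt1 deleted and 1244 in Control spleens (-0.29, adjusted p = 0.0233). Csf1r had 367, 347.7, 530.2, 681.5 and 673 normalized counts in Sirt1 deleted libraries, against 1172, 1037, 716, 762 and 775 in Control libraries, with no overlap (log2 difference -0.81, adjusted p = 0.0132). The other 3 were Mertk, Axl and Ephb2, at -0.72, -0.38 and -0.29. After the correction only Csf1r of the 16 passed (-0.69, adjusted p = 0.0383), beside 6.07% lower over all genes. Csf1r, Mertk and Axl are known from macrophages, and the 11 macrophage markers, which include Csf1r and Mertk, summed to 3232 to 6101 per kilobase in Sirt1 deleted and 6036 to 8152 in Control libraries, led by Hmox1 and Slc40a1. Of these 11, 6 were called lower and none higher, with a median of -0.53, beside 17.5% lower over all tested genes. The part of macrophage content in the lower receptors was not tested. Ddr1, a collagen receptor, and Ephb6, an ephrin receptor without kinase activity, followed Ptk7 in level and none of the 3 passed.

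Of the adaptors and relays that carry receptor signals inward, all 39 entries were listed and 38 tested: 2 were called higher, 14 lower and 22 did not pass, with a median of -0.18. Over all tested genes 14.5% were higher and 17.5% lower. Among genes of the length of Kit 36.4% were lower, and of the length of Flt3 16.7%. The list's median length of 4792 bases lay between these lengths. Without Control replicate 1, 10 were called, and without Control replicate 2, 7. Plcg1, the phospholipase that binds activated receptors, had 5730.3 ± 588 normalized counts in Sirt1 deleted and 8030.2 ± 710.1 in Control spleens (log2 difference -0.49, limma adjusted p = 0.00797). Pdpk1, the kinase that activates AKT, had 2989 in Sirt1 deleted and 4459 in Control spleens (-0.59, adjusted p = 0.0105). Ptpn11, the phosphatase SHP2, had 4205 in Sirt1 deleted and 5703 in Control spleens (-0.45, adjusted p = 0.0106). Map2k2, a kinase of the ERK cascade, was higher, with 4235 in Sirt1 deleted and 3514 in Control spleens (0.27, adjusted p = 0.00846), as was Pik3r2, a regulatory subunit of PI3-kinase (0.19, adjusted p = 0.0197). After the correction 3 remained called, all lower: Plcg1 (-0.33, adjusted p = 0.00735), Pdpk1 (-0.26, adjusted p = 0.0453) and Ptpn11 (-0.24, adjusted p = 0.0367), beside 6.07% lower over all genes. Map2k2 (0.10, adjusted p = 0.0732) and Pik3r2 (0.05, adjusted p = 0.329) did not pass. The most abundant members, Akt1, Nck2 and Grb2, did not pass.

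Of the genes that restrain receptors, 26 of 27 entries were listed and 25 tested: 2 were called higher, 11 lower and 12 did not pass, with a median of -0.22. Over all tested genes 14.5% were higher and 17.5% lower. Among genes of the length of Kit 36.4% were lower, and of the length of Flt3 16.7%. The list's median length of 4755 bases lay between these lengths. Without Control replicate 1 or Control replicate 2, 8 were called in each case. The largest difference among them was in Cbl, a ubiquitin ligase that marks activated receptors for breakdown, with 1469 ± 716 normalized counts in Sirt1 deleted and 4552 ± 1346 in Control spleens (log2 difference -1.73, limma adjusted p = 0.00797). Its relative Cblb had 2492 in Sirt1 deleted and 3204 in Control spleens (-0.37, adjusted p = 0.0106). The receptor phosphatases Ptprc (CD45), at -0.59, and Ptprj, at -0.60, were lower as well (adjusted p = 0.00797 and 0.00906). Socs1, which blocks JAK kinases, and Ptpn2, a phosphatase of JAK and receptor kinases, were higher, at 0.51 (adjusted p = 0.0126) and 0.19 (adjusted p = 0.0394). After the correction 4 were higher and 4 lower, beside 8.29% higher and 6.07% lower over all genes. Cbl, at -1.34 (adjusted p = 0.00928), and Ptprc, at -0.35 (adjusted p = 0.0075), stayed lower, while Cblb (-0.06, adjusted p = 0.407) and Ptprj (-0.27, adjusted p = 0.0771) did not pass. Ptpn6, the phosphatase SHP1, was the most abundant and did not pass, with 5795 per kilobase in Sirt1 deleted and 5832 in Control spleens. Ptprc and Lrig1 followed it in level, and Lrig1, a membrane protein that lowers ERBB receptors, was called lower as deposited (-0.27, adjusted p = 0.0118) and not after the correction (-0.14, adjusted p = 0.131).

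Of the other ligands and binding proteins, 12 of 17 entries were listed and 6 tested. Only Pdgfc, a ligand of the PDGF receptors, was called, with 92.1 ± 24.9 normalized counts in Sirt1 deleted and 138 ± 15.9 in Control spleens (log2 difference -0.61, limma adjusted p = 0.0168; after the correction -0.55, adjusted p = 0.0340). Igf1 had 93.8 ± 32.5 in Sirt1 deleted and 112 ± 12.4 in Control spleens (log2 difference -0.33, adjusted p = 0.283). Flt3l, Igfbp7, Igfbp4 and Hgfac did not pass. Kitl, the ligand of Kit, had 3.06 ± 3.07 normalized counts in Sirt1 deleted and 13.3 ± 7.52 in Control spleens (SD, n = 5 each). Its exact permutation p, not adjusted over genes, was 0.0397. The groups overlapped, with 3 Sirt1 deleted libraries below every Control library and 2 libraries listed at 0. Hgf, the ligand of Met, had 0.969 in Sirt1 deleted and 0.765 in Control spleens (exact permutation p = 0.810). Both Kitl and Hgf were under the level needed for the limma test.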

How the data were processed

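Strand-specific total RNA libraries of 10 leukemic spleens were compared, 5 Sirt1 deleted and 5 Control. Cell suspensions were filtered and freed of red cells by lysis, per the labels' protocols. The authors deposited 1 table of signal values, DESeq-normalized counts made with kallisto 0.44.0 and DESeq (version not given) on mm10, per the submitters' processing notes. The use of strand in counting is not given in the sources used here. All columns were used (0 left out). Low values lay near multiples of 1 step per library (83.3% to 91.0% within 0.1 of a step), which gave the depths, but whole reads were not recovered for most genes, so no count model was fitted.

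Genes with 10 or more in at least 5 libraries (13567) entered limma 3.58.1 (limma-trend, R 4.3.3) as log2(value + 1), adjusted by Benjamini-Hochberg over all tested genes, called at 0.05, two-sided. A fold on this scale understates the change of low genes. Single genes were also tested by exact permutation (scipy 1.17.1), whose smallest p is 0.00794. Levels were divided by the length of the longest protein-coding transcript, or longest transcript, in GENCODE M21 (16504 symbols matched). The correction subtracted splines with 5 degrees of freedom on log2 length and GC content, fitted per library. Since the length slope differs by group, a real change that tracks length would be taken out too. The fits were tested on simulated data.

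Members and lists were chosen with earlier results of these data known. Named genes are the members, Sirt1, the 5 most like Pdgfrb, the 4 called genes of smallest p and the 3 of highest level per pathway list, and the 2 highest per marker list described. Neighbours of Pdgfrb and further genes (Col1a1, Mertk, Axl, Ephb2, Pik3r2, Socs1, Ptpn2, Airn, Igf1, Igfbp4, Hgfac, Kitl, Hgf, M6pr, Gnptab, Gnptg) were chosen after their values were seen. The alternatives numbered 25.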

Additional observations from a re-analysis of the deposited data

How the results depend on the processing

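All 25 alternatives kept Sirt1 lower in Sirt1 deleted spleens, leaving out single libraries giving -0.50 to -0.35. By the adjusted threshold used for calls, Sirt1 did not pass with macrophage markers as a covariate, where 0 genes were called. The threshold for Sirt1 here was instead 0.05 without adjustment over genes, by exact permutation, or by limma in robust, weighted and covariate fits. Sirt1 stayed past this threshold in 22 alternatives. It missed the threshold at -0.00703 with the length slope as a covariate (p = 0.951), at -0.27 without the 3 libraries of steepest length slope (Sirt1 deleted replicate 5, Control replicates 1 and 2, exact permutation p = 0.0857), and at -0.18 with the length and GC correction and macrophage markers together (p = 0.109), an alternative chosen after seeing the data. Of the genes described, 2 were called. Under the correction 1 was called, as Igf1r reversed to 0.27 (adjusted p = 0.0495) and Insr and Igf2r missed the threshold. Under the correction 1 other receptor tyrosine kinase (7 as deposited), 3 adaptors and relays (16) and 8 brakes (13) were called. In each of these lists, and among the other ligands (1 as deposited, 2 with no filter on low values), no gene (0) passed with the length slope, B cell markers or macrophage markers as a covariate, without the 3 steepest libraries, or with the correction and macrophage markers together. Leaving out single libraries gave 2 for the genes described, 3 to 8 other receptor tyrosine kinases, 7 to 21 adaptors, 8 to 14 brakes and 1 ligand. Over all 13567 genes, limma called 0 when the length slope was a covariate (589 at an unadjusted p under 0.05), 0 with macrophage markers (3987) and 1 with B cell markers (3340 at an unadjusted p under 0.05), 3 without the steepest libraries and 2 with the correction and macrophage markers. The cause was not tested, and covariates that separate or nearly separate the groups leave little power to test any gene. Insr and Igf2r stayed below 0 in all 25 alternatives, from -0.43 to -0.01 and from -0.46 to -0.07, and 19 of 25 kept each call. Pdgfrb, Pdgfb, Kit, Flt3 and Pdgfa passed under none that was run. No paired analysis was possible because the labels give no replicate numbers that match libraries across groups. Values of Pdgfra, Met, Flt3 and Pdgfa were low, and Pdgfra and Met were under the level needed for the limma test.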
